A study of Mus musculus with 2 samples.

Results

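The genes described here are those of 4 hypothalamic peptides and of the proteins that receive or bind them: Oxt (oxytocin), Avp (vasopressin), Crh (corticotropin-releasing hormone, CRH), Trh (thyrotropin-releasing hormone), the receptors Oxtr, Avpr1a, Crhr1 and Crhr2, and the binding protein Crhbp. They were taken by symbol, and all 9 were found among the 32285 genes of the count matrix. The samples are labelled as arcuate nucleus and came from male wild-type C57BL/6J mice, 10 to 12 weeks of age. They were enriched for neurons by a sort on NeuN, which marks neuronal nuclei, and were sequenced together as 1 pooled droplet library. A second library counted hashtags, barcoded antibodies that mark the nuclei of 1 preparation before pooling, and the files name its 2 hashtags ARC and PVH (paraventricular hypothalamus). The animals were pooled, and the hashtags do not tell one mouse from another. There was thus 1 sample on each side and no test between them, and every interval given here is a 95% interval that covers counting error only.

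After filtering, 3767 nuclei carried the ARC hashtag and 3074 the PVH hashtag, with a median of 4827 and 5039 unique molecular identifiers (UMIs, each 1 captured RNA molecule) per nucleus. They fell into 21 clusters, built without the 9 genes, of which 19 were neuronal (6776 nuclei). The other 65 nuclei formed cluster 20, with astrocyte and tanycyte markers, and cluster 21, with oligodendrocyte markers. Sim1, which encodes a transcription factor needed for paraventricular neurons to form, was at 112 to 416 UMIs per 1000000 UMIs of all genes (CPM) in 6 neuron clusters and at 5.44 CPM or less in the other 13. Cluster 21 was at 6.33 CPM and cluster 20 had no Sim1 UMI. Clusters 6, 7, 8, 17 and 18, with 1374 nuclei, also carried enough of the other Sim1 markers to be called Sim1-like. Cluster 16 was rich in Sim1 but had too few of the other markers and was left unnamed.

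Oxytocin and vasopressin are made by large neurons of the paraventricular and supraoptic nuclei, whose axons run to the posterior pituitary and release the peptides into the blood. Each peptide is cut from a precursor that also holds a neurophysin, a carrier protein. CRH and TRH are made by smaller paraventricular neurons that end at the median eminence, beside the arcuate nucleus, and they drive the release of corticotropin and thyrotropin from the anterior pituitary. The oxytocin and vasopressin receptors encoded by Oxtr and Avpr1a signal through Gq, and the CRH receptors through Gs. CRH prefers the receptor encoded by Crhr1, the urocortins bind that of Crhr2 with high affinity, and Crhbp encodes a secreted protein that takes up free CRH.

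Oxt (ENSMUSG00000027301) and Avp (ENSMUSG00000037727) are neighbours. In GENCODE M21 on GRCm38, Oxt lies on the plus strand of chromosome 2 from 130576173 to 130577054 and Avp on the minus strand from 130580620 to 130582554, with 3565 bases and no other gene between them. The 27 bases that code for each hormone in the annotated transcripts are shown because they carry all that sets one peptide apart from the other. The 5 bases that differ are in capitals.
Oxt: tgctacAtccagaactgcccCCTGggc
Avp: tgctacTtccagaactgcccAAGAggc
These 5 bases change 2 of the amino acids. Farther along, within the part that codes for the neurophysins, both transcripts share an identical stretch of 127 bases, which ends 255 bases before the 3′ end of the Oxt transcript and 307 before that of Avp. Reads that lie wholly in that stretch cannot be assigned to either gene by their sequence alone. The levels of each gene in the cluster rich in the other are given further on. Whether any UMIs were exchanged between the genes was not tested.

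Oxt and Avp UMIs were found in nuclei of every kind, and only 1 cluster stood apart for each gene. Oxt was detected in 92.7% of all 6841 nuclei and Avp in 76.8%. In the 65 non-neuronal nuclei, which are glial and not a known source of either hormone, both were detected in 87.7% (57 nuclei each, interval 77.2 to 94.5%), with median depths of 3026 UMIs there and 4916 in neurons. A detected UMI of these 2 genes was therefore read as background, and levels were read instead. Cluster 18 had 15.1 Oxt UMIs per nucleus (14.4 to 15.9), or 2039 CPM (1945 to 2136). Its 117 nuclei ranged from 0 to 94 Oxt UMIs, with a median of 14. In cluster 17 the mean was 11.0 Avp UMIs per nucleus (10.4 to 11.6), or 1813 CPM (1716 to 1913). The 120 nuclei of cluster 17 ranged from 0 to 48 Avp UMIs, with a median of 9.5.

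Everywhere else the counts were nearly flat. Across the other 19 clusters, glial ones included, the mean was 2.58 to 3.36 Oxt UMIs and 1.33 to 1.83 Avp UMIs per nucleus. The number of Oxt UMIs per Avp UMI stayed between 1.62 and 2.16 in those 19 clusters, against 8.99 in cluster 18 and 0.267 in cluster 17. The intervals of the lowest, cluster 16 (1.41 to 1.87), and the highest, cluster 8 (1.94 to 2.40), do not overlap. They were picked as the extremes of 19 clusters, so this does not show a spread beyond counting error. The order of the 2 genes reversed between the peptide clusters, while neither lifted the other. Cluster 18, rich in Oxt, held 1.68 Avp UMIs per nucleus (1.46 to 1.94), and cluster 17, rich in Avp, held 2.93 Oxt UMIs per nucleus (2.64 to 3.26), both within the range of the remaining clusters. On the CPM scale Avp in cluster 18 was at 0.791 of its level in neurons outside both clusters (0.683 to 0.911), and Oxt in cluster 17 at 0.875 (0.785 to 0.972).

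**Figure D1:**
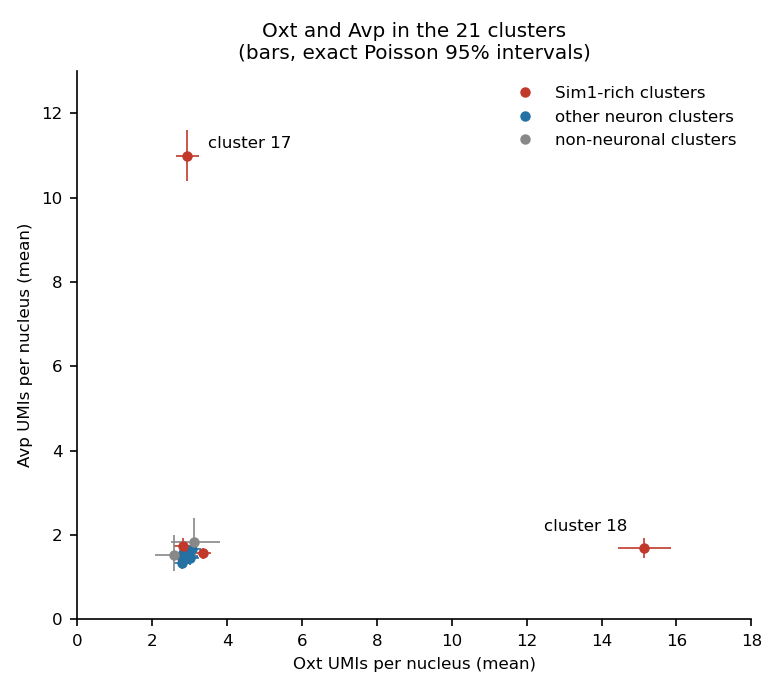
Mean Oxt UMIs per nucleus (horizontal axis) and mean Avp UMIs per nucleus (vertical axis) in each of the 21 clusters; bars are exact Poisson 95% intervals. Cluster 18 stands at 15.1 Oxt UMIs, cluster 17 at 11.0 Avp UMIs, and the other 19 clusters lie together at 2.58 to 3.36 Oxt and 1.33 to 1.83 Avp UMIs.

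The flat level did not scale with depth as the RNA of the nuclei did. Neurons outside clusters 17 and 18 were split into 4 groups of nearly equal size by total UMIs, whose median depth differed by 1.86-fold between the deepest and the shallowest. Oxt had 2.64 UMIs per nucleus in the shallowest group, 2.83 and 2.94 in the next ones and 3.21 in the deepest, a 1.22-fold range. Avp ranged over 1.21-fold and Trh over 1.19-fold. By contrast, the neuronal genes Snap25, Syt1 and Elavl4 differed by 2.16-fold, 1.95-fold and 2.57-fold, as much as the depth or more. Crhr2 differed by 2.18-fold. Crhr1 differed by 1.68-fold, with 0.0379 UMIs per nucleus in the shallowest group and 0.0605, 0.0625 and 0.0636 in the others. Crh differed by 1.71-fold from 24 and 41 UMIs, whose intervals overlap, so it cannot be told from the range of Oxt. In cluster 20, where the median depth was 2501 UMIs, the 2.58 Oxt UMIs per nucleus came to 923 CPM, so that CPM of Oxt and Avp in shallow nuclei overstates their standing. A thinning of every nucleus to 1000 UMIs left 43.9% of nuclei with an Oxt UMI and 26.1% with an Avp UMI, and 61.5% and 41.5% of the non-neuronal nuclei.

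**Figure D2:**
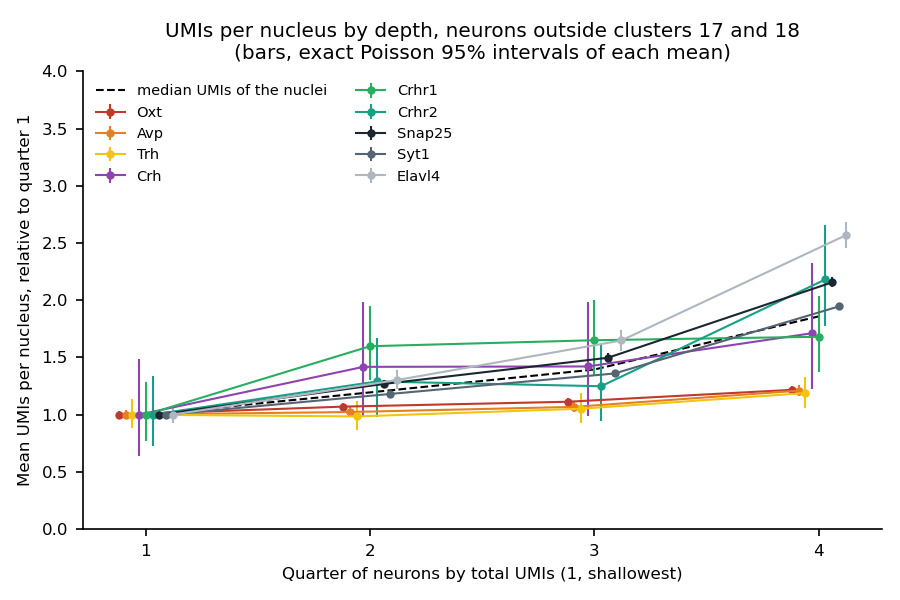
Mean UMIs per nucleus of each gene, relative to its own mean in the shallowest of 4 groups of neurons (vertical axis), by group of total UMIs (horizontal axis), for neurons outside clusters 17 and 18; bars are exact Poisson 95% intervals of each mean and the dashed line is the median depth. Oxt, Avp and Trh differ by 1.22-fold, 1.21-fold and 1.19-fold between the deepest and the shallowest group, over a 1.86-fold difference in depth, and Snap25 by 2.16-fold.

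Nuclei that hold far more than the shared level could be counted. At 10 or more UMIs, there were 123 Oxt-high nuclei with a median of 14 Oxt UMIs, and 62 Avp-high nuclei with a median of 15 Avp UMIs. Cluster 18 held 91 of the 123 Oxt-high nuclei, which was 77.8% of its nuclei, and cluster 17 held 60 of the 62 Avp-high nuclei, which was 60 of its 120 nuclei. No nucleus was high in both genes, 0 of 6841, which allows a share of up to 0.0439% (3 counts, as for every limit on a count of 0 given here). Only 1.80% of these nuclei were Oxt-high and 0.906% Avp-high, so the 0 does not show that the genes exclude each other. Outside these nuclei, 32 of the 944 nuclei called as doublets of both hashtags were high in both, and so was 1 of the 1239 barcodes removed by the filters. Cluster 8, a Sim1-like cluster with Nkx2-2, Esr2 and Reln among its 10 leading genes, held another 11 Oxt-high nuclei, 3.30% of its 333. Its mean of 3.36 Oxt UMIs per nucleus was the highest among the clusters of the flat level, at a median depth of 5803 UMIs. Among the 5213 neurons outside the Sim1-rich clusters, 17 (0.326%) reached 10 Oxt UMIs and 2 (0.0384%) reached 10 Avp UMIs. No non-neuronal nucleus did for either gene, 0 of 65, which allows up to 4.62%. At 20 or more UMIs, 18 of 19 Oxt-high nuclei lay in cluster 18 and 11 of 12 Avp-high nuclei in cluster 17.

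High nuclei held a small part of the RNA of their own peptide. The 123 Oxt-high nuclei carried 9.40% of all Oxt UMIs and the 62 Avp-high nuclei 8.80% of all Avp UMIs. Oxt-high nuclei averaged 1.75 Avp UMIs (1.52 to 2.00), and Avp-high nuclei averaged 3.0 Oxt UMIs (2.58 to 3.46), again the level of all clusters. The receptor genes were too rare for a statement on nuclei this few. Oxtr, seen in 0.512% of all nuclei, had no UMI in either set, and Avpr1a, Crhr1 and Crhr2 had none in the Avp-high nuclei, where a count of 0 allows up to 7.59 CPM.

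**Figure D3:**
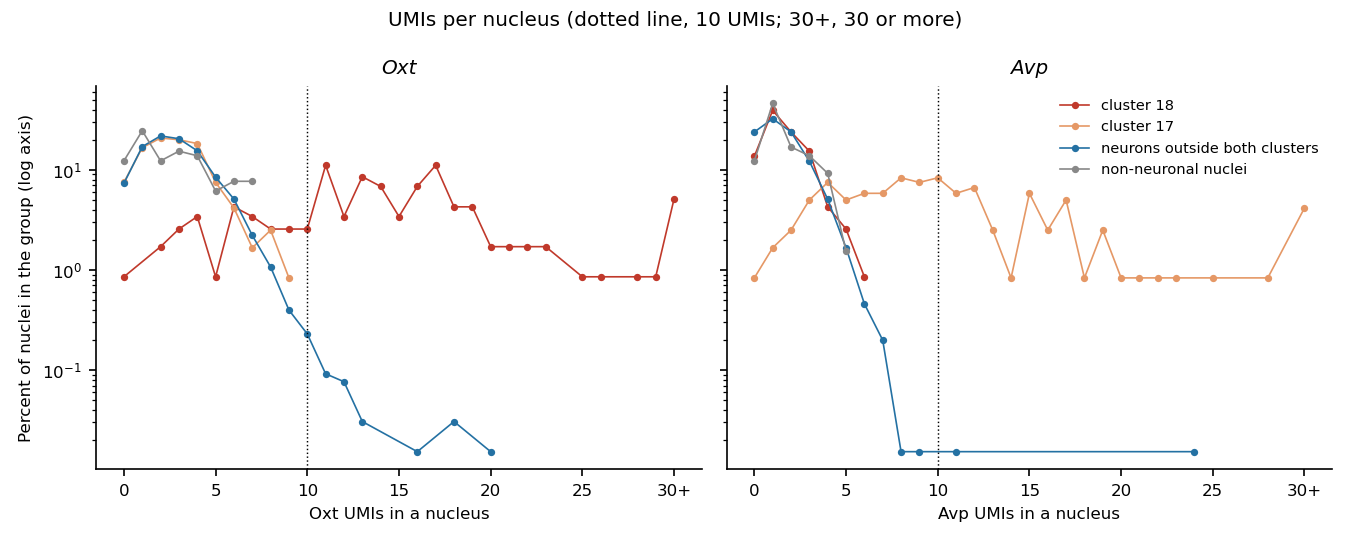
Share of nuclei (vertical log axis, percent of the group) by number of Oxt UMIs (left) or Avp UMIs (right) in a nucleus (horizontal axis, last point 30 or more), for cluster 18, cluster 17, the 6539 neurons outside both and the 65 non-neuronal nuclei; numbers of UMIs seen in no nucleus have no point. Cluster 18 is centred at 14 Oxt UMIs and overlaps the rest in Avp, cluster 17 is centred at 9.5 Avp UMIs and overlaps the rest in Oxt.

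Genes other than the peptides were also compared between the high nuclei and the Sim1-like neurons that were not high. Of the high nuclei, 105 of 123 for Oxt and 60 of 62 for Avp were themselves Sim1-like. Most lay in clusters 18 and 17, and leading genes of those clusters recur below. The lists thus describe these clusters and cannot be read as a trait of high counts alone. In the Oxt-high nuclei the leading gene was Lgr6, an R-spondin receptor, at 49.8 CPM against 1.38, with 45 UMIs in 30 of the 123 nuclei. Next came Slc16a12, a monocarboxylate transporter, at 11.4-fold, and Myocd, a cofactor of serum response factor, stood at 9.13-fold. The others of the 10 leading genes were Gm49708, C030029H02Rik, Smim3, Clic4, Gm13497, Col8a1 and Trim36, at 5.80-fold to 10.9-fold. In the Avp-high nuclei, Pla2r1, a phospholipase A2 receptor, led at 80.9 CPM against 8.87, and Avp itself, which chose these nuclei, was among the 10. Caprin2, an RNA-binding protein, was at 443 CPM against 81.0, with UMIs in 52 of 62 nuclei. Gm47710, Plekhg1, Gda, Zfp804a, Nhsl1, Maml3 and Galntl6 made up the rest, at 5.04-fold to 9.05-fold. These folds rest on 62 to 123 nuclei of 1 library.

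Both peptide clusters held nuclei of both hashtags. Cluster 18 had 108 PVH and 9 ARC nuclei, with 1984 Oxt CPM (1888 to 2083) on the PVH side and 2752 (2358 to 3195) on the ARC side. The 9 ARC nuclei ranged from 7 to 34 Oxt UMIs with a median of 19, inside the range of 0 to 94 of the PVH nuclei. In cluster 17, 86 nuclei carried the PVH and 34 the ARC hashtag, and Avp was at 1537 CPM (1432 to 1646) in the former and 2533 (2318 to 2762) in the latter. Of these, 35 PVH nuclei (40.7%) and 25 ARC nuclei (73.5%) were Avp-high. The ARC nuclei of cluster 17 ranged from 3 to 33 Avp UMIs with a median of 14.5, and the PVH nuclei from 0 to 48 with a median of 8, so the ranges overlap. The median depth was alike, 5660.5 UMIs for ARC and 5675.5 for PVH nuclei of cluster 17. The suprachiasmatic nucleus also holds Avp neurons, and its markers Six6, Vip, Nms and Prok2 together came to 4.12 CPM in cluster 17, with 2 of the 4 at 0, to 3.45 CPM in cluster 18, with 3 at 0, and to 11.8 CPM in all neurons. Their part in the difference between the hashtags was not tested.

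Enzymes that cut and amidate peptide precursors were read from a list of 16 pathway genes, 10 of which had at least 20 UMIs in neurons. In cluster 18, 2 of these 10 were at least 2-fold higher than in all other neurons and 3 at least 2-fold lower, where 6.89% of 18037 genes were higher and 21% lower. In cluster 17, 1 was higher and 2 were lower, where 6.78% and 23.3% of genes were. Pcsk1, the convertase that opens precursors at basic pairs, was 5.09-fold higher in cluster 18 than in all other neurons (4.31 to 5.97) and 2.67-fold higher in cluster 17 (2.11 to 3.35). Pam, which amidates the C-terminal residue of both hormones, was 2.05-fold higher in cluster 18 (1.88 to 2.23) and at 0.745 of the other neurons in cluster 17 (0.640 to 0.863). Pcsk2, a second convertase, went the other way, at 0.454 in cluster 18 and 1.5 in cluster 17. Trhde, the enzyme that degrades TRH, was at 0.0522 (0.0169 to 0.122) in cluster 18 and 0.302 (0.193 to 0.450) in cluster 17. The TRH receptor gene Trhr was also at least 2-fold lower in both, but from 1 UMI in each cluster. Its intervals reach 0.540 in cluster 18 and 0.648 in cluster 17, so a 2-fold difference is not settled. Of 6 regulators, Sim1, Pou3f2, Otp and Arnt2 were among the markers that gave both clusters their name, so their levels there are no result. Of the remaining pair, Nr3c2 was not 2-fold apart in either cluster. Nr3c1, the glucocorticoid receptor, was at 16.1 CPM in cluster 18 and 9.62 CPM in cluster 17, against 116 and 115 CPM in the other neurons.

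Crh (ENSMUSG00000049796, chromosome 3, minus strand, 19693401 to 19695396) was scarce. All 6841 nuclei held 139 Crh UMIs, in 136 nuclei, and no nucleus held more than 2. Cluster 7 had the highest level, 12.1 CPM (7.73 to 18) from 24 UMIs, followed by cluster 8 at 6.41 CPM (3.41 to 11.0), and the median neuron cluster was at 3.41 CPM. Cluster 7 was above all other neurons together, at 3.57-fold (2.20 to 5.57), but its ratio to cluster 8 was 1.88 (0.921 to 4.03), so the order of the clusters is not set by the counts. Cluster 7 also had 534 CPM of Nr3c2 and 309 CPM of Nr3c1, the mineralocorticoid and glucocorticoid receptors, 3.31-fold (3.10 to 3.54) and 3.04-fold (2.78 to 3.31) above the other neurons. They are from the 6 regulators, 5 of which were at least 2-fold higher in cluster 7. The share of all genes past 2-fold was not counted for that cluster. Non-neuronal nuclei held 0 Crh UMIs, which allows up to 11.6 CPM, which lies inside the interval of cluster 7, so a difference from them was not detectable at this depth.

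Trh (ENSMUSG00000005892, chromosome 6, minus strand, 92242061 to 92244650) stood out in cluster 16. There it was at 107 CPM (89.1 to 128), with UMIs in 37.0% of 189 nuclei (30.1 to 44.3) and a maximum of 9 in a nucleus. Clusters 7 and 6 followed with 38.7 CPM (30.6 to 48.4) and 36.6 CPM (29.4 to 45.0), which do not differ beyond their intervals, and the median neuron cluster was at 27.6 CPM. In non-neuronal nuclei Trh was at 27.1 CPM (10.9 to 55.7) with UMIs in 10.8%, so no neuron cluster other than cluster 16 lay outside the interval of the non-neuronal nuclei. Nuclei with 3 or more Trh UMIs numbered 23, of which 13 were in cluster 16 and 6 in cluster 6. No nucleus had 10. Cluster 16, whose leading genes were Sim2 and Ebf1, was also 3.11-fold higher in Trhr (2.18 to 4.33) and 3.02-fold higher in Trhde (2.70 to 3.37) than the other neurons. These were the 2 of 10 pathway genes at least 2-fold higher there. The share of all genes past 2-fold was not counted for cluster 16. Of its 189 nuclei, 183 carried the PVH hashtag.

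The CRH receptor genes each marked a few clusters, and not the same ones. Crhr1 (ENSMUSG00000018634, chromosome 11, plus strand, 104132855 to 104175523) was at 42.6 CPM (31.6 to 56.2) in cluster 12, which is SST-like, and at 37.7 CPM (32.0 to 44.0) in cluster 2, which is AGRP-like (the neurons that make agouti-related peptide and drive feeding). These levels do not differ beyond their intervals. Together both clusters held 55.9% of the Crhr1 UMIs of neurons in 14.9% of the neurons. Cluster 3 was next, at 9.0 CPM (6.27 to 12.5), and the median was 4.40 CPM. Crhr1 UMIs were seen in 18.2% of the AGRP-like nuclei (15.6 to 21.1) and 1.54% of non-neuronal nuclei. Cluster 17 had 0 Crhr1 UMIs in 120 nuclei.

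Crhr2 (ENSMUSG00000003476, chromosome 6, minus strand, 55090049 to 55133016) was at 64.3 CPM (49.8 to 81.9) in cluster 15, an unnamed cluster led by Tbx19 with 199 of 204 nuclei from the ARC side. It was at 61.0 CPM (47.6 to 77.1) in cluster 16, the Trh-rich cluster of the PVH side. Both clusters held 52.5% of the Crhr2 UMIs of neurons in 5.80% of the neurons. Cluster 14, GHRH-like, had 27.9 CPM (19 to 39.6) and cluster 11, VMH-like, 17.1 CPM (11.0 to 25.2), against a median of 1.61 CPM. The first pair and the second pair each overlap within, while cluster 16 and cluster 14 do not overlap. In the AGRP-like and SST-like clusters, where Crhr1 was highest, Crhr2 was at 2.15 and 6.82 CPM.

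Oxtr, Avpr1a and Crhbp were too rare for an order of clusters. Oxtr (ENSMUSG00000049112, chromosome 6, minus strand, 112473683 to 112489943) had 35 UMIs in 35 nuclei. Its highest cluster, cluster 19, had 4 of them, at 7.10 CPM (1.93 to 18.2), and the POMC-like cluster 9 had 6. Avpr1a (ENSMUSG00000020123, chromosome 10, plus strand, 122448499 to 122453452, overlapped on the other strand by Gm48877) had 54 UMIs, 11 of them in the dopaminergic-like cluster 4, at 4.42 CPM (2.21 to 7.92). Crhbp (ENSMUSG00000021680, chromosome 13, minus strand, 95431371 to 95444924) had 50 UMIs, 7 of them in cluster 16, at 6.10 CPM (2.45 to 12.6). In each of these genes the interval of the highest cluster overlaps that of the second.

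**Figure D4:**
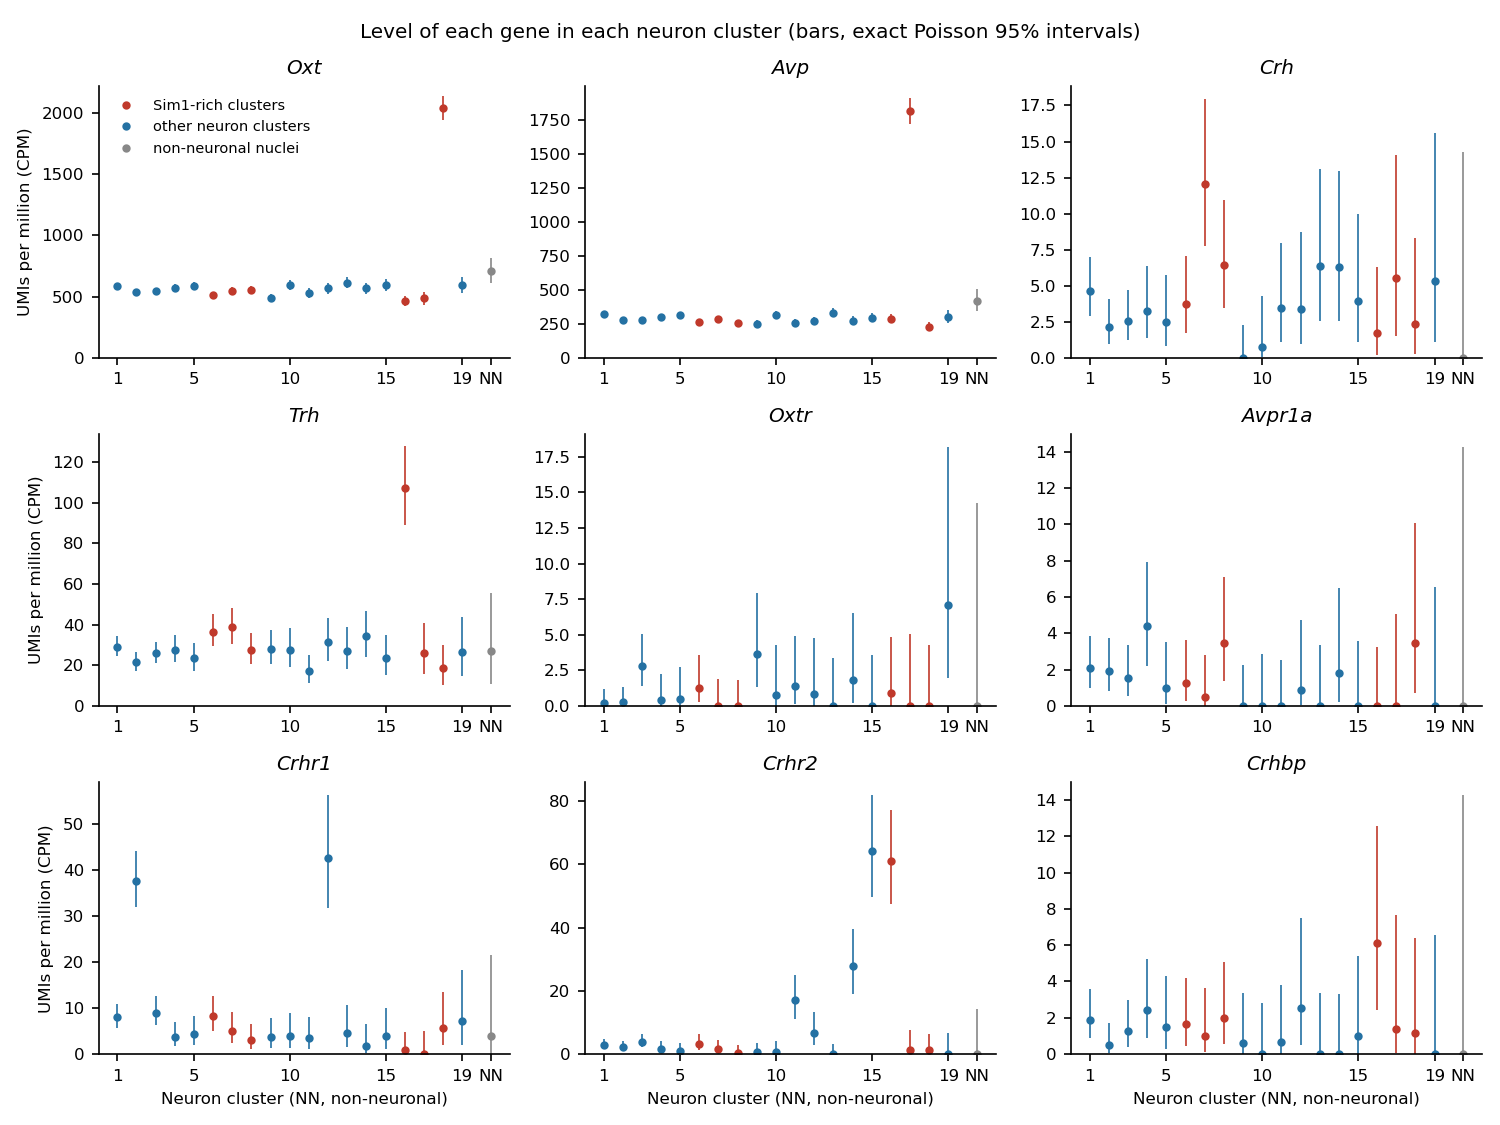
Level of each gene (vertical axis, CPM, a separate linear scale for each gene) in the 19 neuron clusters and the non-neuronal nuclei (horizontal axis, NN); bars are exact Poisson 95% intervals. Oxt stands apart in cluster 18 (2039 CPM), Avp in cluster 17 (1813), Trh in cluster 16 (107), Crhr1 in clusters 2 and 12 (37.7 and 42.6) and Crhr2 in clusters 15 and 16 (64.3 and 61.0).

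Between the hashtags, no member reached a 2-fold difference in either direction, where 3.36% of 18112 genes were at least 2-fold higher and 2.68% at least 2-fold lower on the PVH side. Sim1 was 10.3-fold higher on the PVH side (8.91 to 11.9), at 109 against 10.6 CPM. Oxt was at 616 CPM (604 to 628) in PVH nuclei and 565 (554 to 575) in ARC nuclei, a ratio of 1.09 (1.06 to 1.12), and Avp at 324 and 310 CPM, a ratio of 1.04 (1.01 to 1.08). Without the 2 clusters richest in Oxt the Oxt ratio was 0.986 (0.959 to 1.02), and the same step took Avp to 1.00 (0.962 to 1.04). The clusters left out were chosen for the gene's level. They were cluster 18 for Oxt and cluster 17 for Avp, both mostly of PVH nuclei, and cluster 13 for both genes. Cluster 13 was at 614 Oxt and 331 Avp CPM, and 215 of its 221 nuclei were from the ARC side. Leaving out clusters 18 and 17 lowers the PVH level by construction, and the values that remain are a description. The hashtags differed in the number of high nuclei, with 102 Oxt-high nuclei on the PVH side (3.32%) and 21 on the ARC side (0.557%), and 36 and 26 Avp-high nuclei (1.17% and 0.690%). Cluster 18 held 83 of the 102 Oxt-high nuclei of the PVH side but only 8 of the 21 of the ARC side. Of the 100 Sim1-like nuclei that carried the ARC hashtag, 25 were Avp-high and 9 Oxt-high. Trh was 1.32-fold higher on the PVH side (1.17 to 1.49), and 1.07-fold (0.937 to 1.23) without clusters 16 and 7. Those clusters were chosen for high Trh and are nearly all of PVH nuclei, so the second value is likewise a description.

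Crhr1 was lower on the PVH side over all nuclei. It was at 6.87 CPM in PVH and 13.2 CPM in ARC nuclei, a ratio of 0.519 (0.413 to 0.649). Only 11 of 774 nuclei in cluster 2 and 6 of 238 in cluster 12 carried the PVH hashtag. Leaving out clusters chosen for high Crhr1 that are nearly all of ARC nuclei lowers the ARC level by construction, and the values that remain are a description. In the other nuclei Crhr1 was at 6.79 CPM on the PVH side and 3.66 on the ARC side, a ratio of 1.86 (1.33 to 2.63). Crhr2 had a ratio of 0.847 (0.655 to 1.09), with one of its richest clusters on each side, and 0.591 (0.396 to 0.870) without them. The latter value also follows a choice of clusters by level and is a description. Oxtr had a ratio of 1.38 (0.674 to 2.88) from 19 and 16 UMIs. Leaving out clusters 19 and 9, both mostly of ARC nuclei, takes away 10 ARC and no PVH UMIs, so that the ratio of 3.30 left by this step is fixed by the choice of clusters and is no result. Crh, Avpr1a and Crhbp had ratios of 1.37, 1.08 and 1.61 with intervals that include 1. Of the pathway list, 11 of 16 genes had at least 20 UMIs, of which Trhr (2.03-fold) and Trhde (3.37-fold) were higher on the PVH side. Cd38, which takes part in oxytocin release, was lower there, at 0.179 against 1.08 CPM. That gene had 11 of its 24 UMIs in the 65 non-neuronal nuclei. The median log2 ratio was 0.12 over the 9 members and -0.04 over all genes compared.

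**Figure D5:**
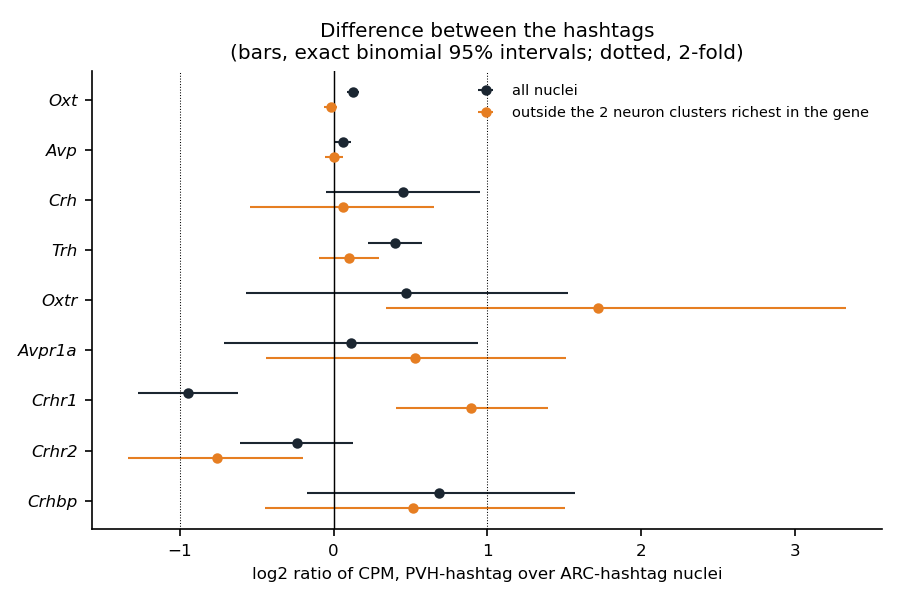
log2 ratio of CPM in PVH-hashtag over ARC-hashtag nuclei (horizontal axis) for the 9 genes, over all nuclei (dark) and outside the 2 neuron clusters richest in each gene (orange); bars are exact binomial 95% intervals and dotted lines mark 2-fold. Oxt and Avp lie at 0.12 and 0.06 over all nuclei, and Crhr1 moves from -0.95 to 0.89 when clusters 2 and 12 are left out.

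Sim1-like neurons were compared with the other 5402 neurons. Crh was higher at 6.46 against 3.12 CPM, a ratio of 2.07 (1.44 to 2.96), the only member at least 2-fold higher, in a background of 3.05% of 18037 genes. It was under 2-fold with hashtags called at a quantile of 0.99 (log2 ratio 0.89) and over neurons with a Sim1 UMI (0.83). At that quantile Oxt (1.19) and Avp (1.45) were past 2-fold, but it kept only 1636 singlets and 104 Sim1-like neurons, against 6841 and 1374. Oxtr, Crhr1 and Crhr2 were at least 2-fold lower, where 5.01% of genes were. Their ratios were 0.325 (0.0637 to 1.04) for Oxtr, 0.430 (0.303 to 0.596) for Crhr1 and 0.198 (0.107 to 0.339) for Crhr2. Adding cluster 16 to the Sim1 neurons turned Crhr2 to 1.40 (1.06 to 1.82), took Crh to 1.85 (1.29 to 2.63) and left Oxtr and Crhr1 at least 2-fold lower, where 3.23% of genes were higher and 4.05% lower. With that cluster Trh went from 1.09 (0.942 to 1.25) to 1.59 (1.40 to 1.80). Oxt was 1.24-fold (1.2 to 1.28) and Avp 1.38-fold (1.32 to 1.44) higher in Sim1-like neurons, and without the nuclei that reached 10 UMIs of the gene the log2 ratios were -0.10 and 0.02. The Sim1 neurons outside clusters 17 and 18, cluster 16 included, had 3.0 Oxt and 1.54 Avp UMIs per nucleus, within the ranges of the 13 other neuron clusters.

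In non-neuronal nuclei Oxt was 1.2-fold (1.04 to 1.39) and Avp 1.32-fold (1.08 to 1.60) higher in CPM than in neurons, and Trh was at 0.903 (0.362 to 1.87). Per nucleus, they held 2.82 Oxt and 1.66 Avp UMIs, against 2.91 and 1.51 in the neurons outside clusters 17 and 18. No UMI of Crh, Oxtr, Avpr1a, Crhr2 or Crhbp was found there, and 1 of Crhr1. With 65 nuclei, each 0 allows up to 11.6 CPM, above the level of each of these genes in neurons as a whole, so an absence of these 5 genes from glia was not detectable at this depth.

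The genes whose levels over the 19 neuron clusters were most like each member were ranked by Pearson's r of log2(CPM + 1), as a description over clusters that share 1 library. For Oxt these were Mvb12b (r = 0.87), Mief1 (0.83) and Erc1 (0.81), and for Avp Degs1 (0.79), Pex14 (0.78) and Avl9 (0.76). All 3 genes for Oxt were highest in cluster 18 and all 3 for Avp in cluster 17. Oxt and Avp each stood apart in that cluster only, so these values of r rest mainly on 1 cluster each. Crhr1 was most like Gfra2 (0.89), a GDNF-family receptor, which was at 171 CPM in cluster 12 and 33.7 CPM in the median cluster. Trh was most like Gm26672 (0.78) and Ebf1 (0.77), the latter at 646 CPM in cluster 16 and 4.12 CPM in the median cluster. The nearest genes to Crh were Gm30159 (0.74), Tspan12 (0.72) and Sphkap (0.72), to Crhr2 Ubr7 (0.80), Lrrc58 (0.74) and Manea (0.73), and to Crhbp Map3k15 (0.75), Ina (0.73) and Extl2 (0.72). For Oxtr and Avpr1a, led by Ccdc15 (0.76) and Arnt (0.82), the levels rest on 35 and 54 UMIs in all, and for Crhbp and Crh on 50 and 139. Every gene named here is among the highest of 10616 genes compared with its member.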

How the data were processed

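The authors deposited raw UMI counts of 11409 barcodes, called as cells with Cell Ranger (5.0 in the submitters' processing notes) on mm10, without normalization. The filters and demultiplexing of the paper were applied in R 4.3.3 with Seurat 5.3.0: over 800 and under 5000 genes, no more than 1% mitochondrial counts and 12000 counts in all, then HTODemux at a positive quantile of 0.8, which left 6841 of 10170 nuclei (944 hashtag doublets and 2385 unassigned nuclei were set aside, and doublets within a hashtag were not removed). Clusters came from 2000 variable genes without the 9 members, 30 components, 20 neighbours and Leiden (leidenbase 0.1.32) at 0.55. Clusters took a name from 3 or more of its markers, the first included, at 1.5-fold over the other neurons. Summaries used Python 3.11.15, numpy 2.4.6 and scipy 1.17.1. CPM are summed UMIs per 1000000 UMIs with exact Poisson intervals, shares and ratios have exact binomial intervals, and ratios were called at 2-fold with at least 20 UMIs. Thinning drew 1000 UMIs per nucleus and left out 1 shallower nucleus. The ratio step was tested on simulated data. All 9 members were named, with the 3 most alike genes for each and the 10 leading genes of high nuclei. The members, lists and thresholds were chosen with earlier results of these data known.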

Additional observations from a re-analysis of the deposited data

Results flagged for a closer look

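Barcodes that entered none of the comparisons also held high peptide counts. Outside the hashtag singlets, 218 barcodes had at least 10 Oxt UMIs and 65 had at least 10 Avp UMIs, both more than the 123 and 62 singlets. Of the 944 nuclei called as doublets of both hashtags, 171 were Oxt-high (18.1%) and 45 Avp-high (4.77%). Of these, 32 were high in both genes. The 2385 unassigned nuclei held 14 and 15, none of them high in both. The 1239 barcodes removed by the filters, with a median depth of 652 UMIs, held 33 Oxt-high barcodes, 22 of them over the limit of 12000 counts, and 5 Avp-high ones, with 1 high in both, and reached 249 Oxt and 111 Avp UMIs in a barcode. There were no control samples for these counts. A barcode called as a doublet is taken to hold more than 1 nucleus, but this was not tested. The median depth of the called doublets was 5216 UMIs, against 4911 in the singlets.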

How the results depend on the processing

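No paired analysis was possible because all nuclei form 1 pooled sample. The highest level over neuron clusters stayed within its counting interval in all 36 values recomputed, for 9 genes under 4 settings of the clustering. The cause of the other moves was not tested. All ratios here are log2. For PVH over ARC, Oxt (0.12) was 0.43 at a positive quantile of 0.99, -0.038 without nuclei of at least 10 UMIs and -0.020 without the 2 clusters richest in the gene. Leaving out the richest clusters was an alternative added with the data in view, as were cluster 16 and the threshold of 3 UMIs. Under the same settings of quantile and richest clusters Avp (0.06) was 0.25 and 0.0019, and it was -0.0034 when thinned. Without its richest clusters Trh (0.40) was 0.10, Oxtr (0.47) 1.72, Crhr1 (-0.95) 0.89 and Crhr2 (-0.24) -0.76. Thinning gave Trh 0.13, Oxtr -0.71, Avpr1a 1.52, Crhr2 0.43 and Crhbp -0.44, and quantile 0.99 gave Crhr2 0.34. For Sim1-like over other neurons, Oxt (0.31) was 0.36 at a mitochondrial limit of 5%, 1.19 at quantile 0.99, 0.52 at resolution 1.2, 0.48 with members among the variable genes, -0.10 without nuclei of at least 10 UMIs and 0.24 with cluster 16 added. Avp (0.46) was 0.53, 1.45, 0.73, 0.68 and 0.022 under the first 5 of these and 0.56 over neurons with a Sim1 UMI. Trh (0.12) was 0.67 both over neurons with a Sim1 UMI and with cluster 16. Crh (1.05) was 0.89 at quantile 0.99 and with cluster 16, and 0.83 over neurons with a Sim1 UMI, all under 2-fold. Crhr1 (-1.22) was -0.51 at quantile 0.99 and -1.74 at resolution 1.2. Crhr2 (-2.33) was -0.038 over neurons with a Sim1 UMI and 0.48 with cluster 16. Non-neuronal nuclei chosen by marker UMIs gave Oxt 0.75 and Avp 0.79. High nuclei of Oxt (123) and Avp (62) numbered 50 and 21 at quantile 0.99, 308 and 122 without the hashtag step, and 341 and 127 over all barcodes. Quantile 0.99 kept 1636 singlets, against 6841. At least 3, 5 and 20 UMIs gave 3727, 1301 and 19 for Oxt and 1445, 260 and 12 for Avp, and for Trh 23 and 4 at 3 and 5 UMIs. Depth limits the rare genes, since Oxtr, Avpr1a and Crhbp rest on 35 to 54 UMIs.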
